A study of Mus musculus with 6 samples.

Results

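In sorted cells of the embryonic mouse cortex, 10 genes of iron handling were followed: the ferritin heavy chain gene Fth1, the ferritin light chain gene Ftl1 and its pseudogene Ftl2-ps, the transferrin receptor Tfrc, the iron sensors Ireb2 and Aco1, the ferritin receptor Ncoa4, and the iron transporters Slc11a2, Slc40a1 and Slc25a37. They were chosen by symbol, 10 of the 54146 genes counted. Ftl2-ps was included because of its difference between the groups compared here, and the question was whether working genes of iron handling differ with it. For that reason the values of Ftl2-ps are described with no test, while the other 9 genes were tested as part of a model over all genes.

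The study compared 2 groups of 3 libraries at E15.5 (E, embryonic day). Embryos were electroporated in utero at E14.5 with a mixture of a green fluorescent protein (GFP) plasmid driven by the CAG promoter, at 0.7 µg/µl, and a hairpin plasmid driven by the U6 promoter, at 1 µg/µl. The hairpin was a precursor of the microRNA miR-3607 in the Mir group and the vector supplier's negative control in the Scr group. GFP-positive cells were sorted 24 hours later, and each library held the cells of 2 embryos, so that the spread between libraries is a spread between pools of embryos. Both groups carry GFP and a U6 hairpin and are labelled as wild-type animals, with ICR named as the background in the protocol and C57BL/6 in the sample characteristics. The gate selected for GFP, and the amount of hairpin in the sorted cells was not analysed here.

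Ferritin is a hollow shell of heavy and light chains in which cells store iron. The heavy chain oxidises ferrous iron and the light chain helps the mineral core to form. Cells adjust storage, uptake and export through a pair of iron regulatory proteins, the products of Aco1 and Ireb2, which bind a stem-loop called the iron responsive element when iron is scarce. A stem-loop before the coding sequence, as in the ferritin and Slc40a1 transcripts, then blocks translation, and stem-loops after the coding sequence, as in Tfrc, then protect the transcript from decay. Ferritin mRNA is therefore regulated largely in its translation, whereas Tfrc mRNA itself changes with iron. Processed pseudogenes such as Ftl2-ps are copies of an mRNA put back into the genome.

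Ftl2-ps (ENSMUSG00000082062) lies at chr4:125504288-125504839 on the plus strand of GRCm38 and is annotated as a processed pseudogene of 552 bases. It sits inside the span of the kainate receptor gene Grik3 (chr4:125490700-125714173, plus strand) without sharing an exon base with it (0 bases shared), and it shares 91 bases with the microRNA gene Mir692-2. Its 552 bases aligned to the coding sequence of Ftl1 with 98.73% identity and 7 substitutions: A307C, T354C, G366C, A401T, T402C, G468A and G504A. Positions count from 1 at the A of the start codon, and the base of Ftl1 stands first. A stretch that differs is shown because the counts of both genes depend on such differences; differing bases are in capitals. Bases 387 to 415 hold A401T and T402C:
Ftl1: cctggaaagccactATctggataaggagg
Ftl2-ps: cctggaaagccactTCctggataaggagg

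The first difference stands at base 307, so the earlier part of the pseudogene has the same letters as Ftl1. Of the 503 stretches of 50 bases in Ftl2-ps, the length of a read, 230 (45.7%) covered at least 1 difference from Ftl1. Fewer set it apart from all annotated genes: 441 stretches (87.7%) also occurred in the transcript of another gene, on either strand, most often in Ftl1-ps1 (358 stretches), a copy of Ftl1 annotated as coding, and in Ftl1 itself (273). The remaining 62 stretches (12.3%) began at bases 305 to 366, which is to say that each covered T354C or G366C. With 12 bases on either side, those 2 substitutions were found in 0 other annotated genes, whereas A307C was shared with 7 genes and G468A with 4. By the same count Ftl1 was no easier to tell apart, as 833 of the 919 stretches in its transcript (90.6%) occurred in another gene and 86 did not. The 833 include 307 stretches shared with Gm10252, a gene that overlaps Ftl1 on the opposite strand. Not all of them need therefore lie in a copy elsewhere in the genome. How the authors counted reads with several matches is not given in the sources used here; the count files listed 39.3 to 44.4% of reads as aligned to more than 1 place. The genome outside annotated transcripts was not searched.

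**Figure D1:**
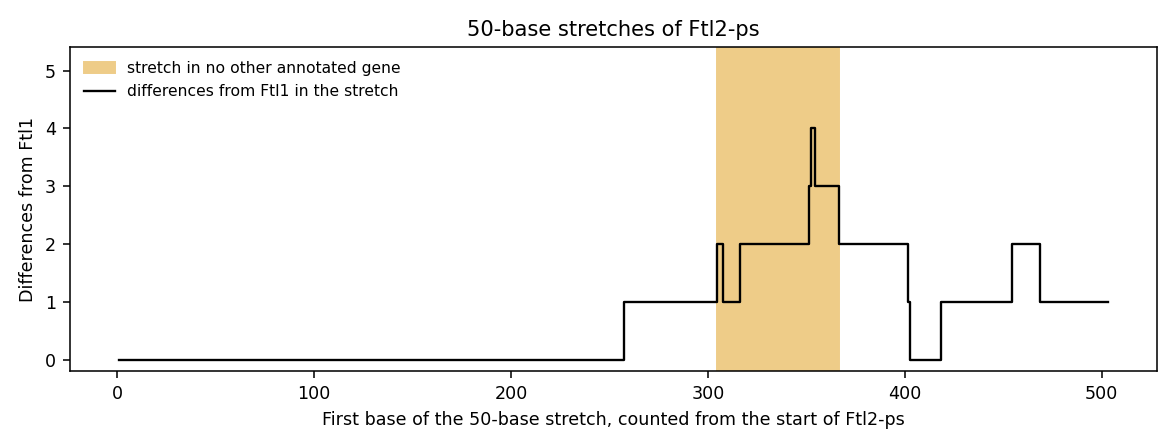
Number of differences from Ftl1 (y axis) in each 50-base stretch of Ftl2-ps, by the first base of the stretch (x axis, counted from the start of the pseudogene); the shaded band marks the stretches found in no other annotated gene. The band covers 62 of the 503 stretches, with first bases 305 to 366.

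Matches to the iron responsive element in the other members were read from 1 GENCODE M21 transcript per gene. They are shown because such elements tie the transcripts that hold them to cellular iron. The search was for a C, then 5 bases, the letters CAGTG and 1 further base, followed by 5 bases that pair with the first 5 (G with U allowed), on the sense strand only. The bulged C and the loop are in capitals. Light and heavy chain held a match before the coding sequence, as did the iron exporter Slc40a1, and the transferrin receptor held 4 after it:
Ftl1: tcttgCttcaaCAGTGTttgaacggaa
Fth1: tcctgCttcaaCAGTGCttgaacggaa
Slc40a1: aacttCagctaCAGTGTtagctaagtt
Tfrc (a): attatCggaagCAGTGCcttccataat
Tfrc (b): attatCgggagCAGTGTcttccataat
Tfrc (c): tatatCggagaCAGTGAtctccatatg
Tfrc (d): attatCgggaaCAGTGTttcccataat
Among all genes with an annotated UTR, 19 of 19686 held such a match in the 5′ UTR (0.0965%) and 103 of 20390 in the 3′ UTR (0.505%). The search read 1 transcript per gene and allowed no mismatch, so it can miss known elements. Epas1, listed below with a known element, was not among the 19 with a 5′ UTR match. A member with no match, such as Slc11a2, may therefore still hold an element. The annotated 552 bases of Ftl2-ps correspond to the coding sequence and held no match. The 5′ UTR of Ftl1-ps1, the closest coding copy, held one.

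Libraries had 12724511 to 16684038 counts in genes, and levels are given as CPM, read counts divided by the TMM-scaled library size. The cells are labelled as cortical progenitors, and all 8 radial glia markers were detected in each library. Their summed level was 1223 to 1821 CPM in Scr and 1556 to 2311 CPM in Mir. All 8 had a higher mean in Mir, and the sums overlapped. Intermediate progenitor markers (5 of 5 with a higher mean in Mir) summed to 1155 to 1851 CPM in Scr and 1868 to 2649 CPM in Mir, with no overlap. Markers of cortical neurons were also abundant, at 4602 to 5458 CPM in Scr and 3984 to 4379 CPM in Mir, again with no overlap and with 5 of 7 means lower in Mir. The part of these differences in marker levels in the values of the iron genes was not tested. Markers of cells that do not come from the cortical ventricular zone were uneven. Summed inhibitory neuron markers were at 244 to 937 CPM in Scr and 109 to 308 CPM in Mir, erythroid markers at 248 to 851 and 1.47 to 570 CPM, microglia and macrophage markers at 21.8 to 95.4 and 10.2 to 59.8 CPM, and endothelial markers at 35.6 to 248 and 21.2 to 70.2 CPM. Mir replicates 1 and 2 were the lowest for each of these 4 lists, and Scr replicate 2 was the highest for 3 of them, microglia being highest in Scr replicate 3. In bulk RNA, fewer cells of a type and less RNA per cell cannot be told apart.

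Ftl2-ps had 201, 125 and 153 counts in Scr replicates 1, 2 and 3, and 1 count in each of the 3 Mir libraries. These are 15.7, 9.05 and 9.21 CPM in Scr against 0.0636, 0.0639 and 0.0679 CPM in Mir. Every Scr library stood far above every Mir library, and Scr replicate 1 was the highest of all. Summed over libraries, 479 counts in Scr stood against 3 in Mir, a ratio of 170 after scaling to library size. Its exact 95% interval of 57.9 to 828 covers counting error only (reads amplified without molecular identifiers are not independent molecules). The interval leaves out the spread between pools and the choice of this gene for its difference, so it is no test of that difference. The fitted log2 fold change was -7.27 ± 0.43 (SE). On log2 (CPM + 0.5), which understates low genes, the difference of means was -4.34. Ftl2-ps made up 13.6% (Wilson 95% interval 11.9 to 15.4), 6.33% (5.34 to 7.49) and 6.53% (5.60 to 7.60) of the counts given to Ftl1 and Ftl2-ps together in the Scr libraries, and 0.0486 to 0.0829% in the Mir libraries.

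The 1 count in Mir replicate 3 was found in a library whose erythroid, microglial and endothelial marker sums (570, 59.8 and 70.2 CPM) lay within the Scr range. With the endothelial markers as a covariate the log2 fold change of Ftl2-ps was -7.25 ± 0.53. Its host gene Grik3 had 74, 382 and 203 counts in Scr and 39, 41 and 118 in Mir, a log2 fold change of -1.80 ± 0.66 that was not called (adjusted p = 0.291); the groups overlapped, and Grik3 was lowest among Scr libraries where Ftl2-ps was highest. Mir692-2 had 0 counts in all 6 libraries. The seed of the miR-3607 strand encoded after the hairpin loop is CATGTGA, bases 2 to 8, and 0 matches of its sites TCACATG or CACATGA were present in the 552 bases. The part of cell types, of the host gene or of the microRNA in the values of Ftl2-ps was not tested.

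**Figure D2:**
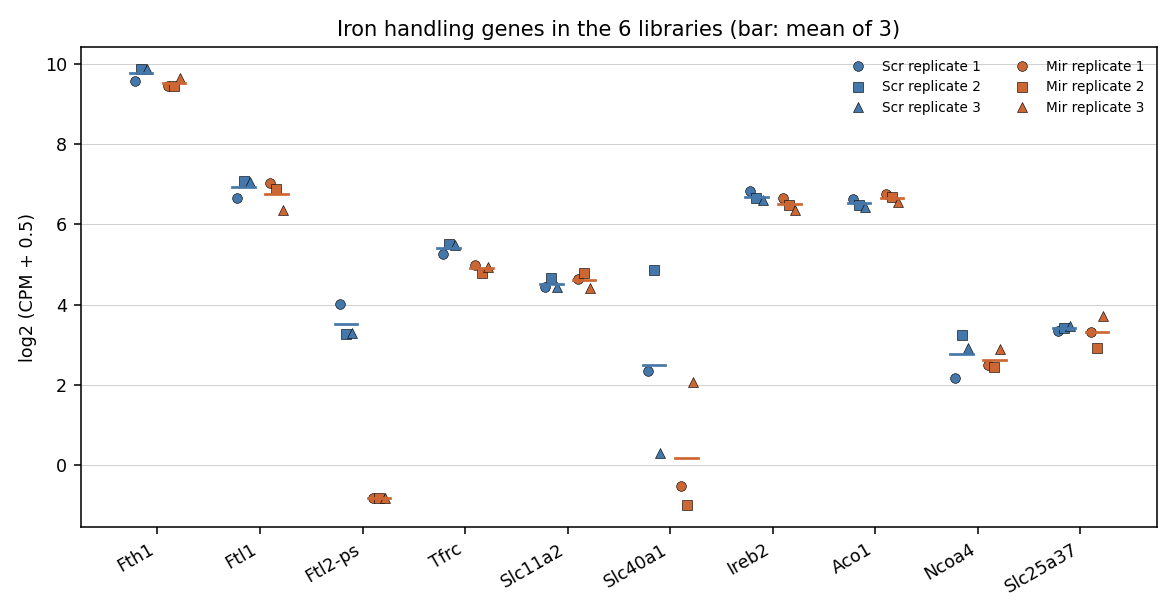
Level of the 10 genes in each library on log2 (CPM + 0.5), y axis; blue points are Scr, orange points Mir, the marker shape gives the replicate number and bars are means of 3 libraries. Ftl2-ps and Tfrc are the genes whose groups do not overlap.

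Outside Ftl2-ps, 0 of the other 9 genes passed an adjusted p of 0.05 in edgeR's quasi-likelihood F test with Benjamini-Hochberg adjustment over 16897 genes, all 10 genes having passed the filter on low counts. Over all genes 0.00592% were called lower and 0% higher. The 1 gene called was Ftl2-ps, which was chosen for its difference, so its call is no test of it. At an unadjusted p under 0.05, 2 of the 9 (Tfrc and Fth1) were lower in Mir, where 7.93% of all genes were lower and 6.57% higher. Tfrc was the 1 gene of the 9 whose groups did not overlap, against 10.3% of all genes with no overlap and lower in Mir and 9.72% with no overlap and higher (20% in all). The fitted fold change was below 0 for 7 of the 9, against 51.2% of all genes, and their median was -0.19, against -0.0077 over all genes. DESeq2 called 1 of the 9, Tfrc, where it called 3.64% of its 14664 genes, 2.2% lower and 1.44% higher. The members were picked with earlier results known, so these counts describe them and support no statement about iron genes as a class.

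Levels are set side by side here per kb of annotated exon, joined over all transcripts of a gene. On that scale Fth1 was highest, at 201 to 269 CPM per kb over the 6 libraries, and Ftl1 came next at 61.0 to 99.9. Aco1 followed at 19.1 to 23.9, Ireb2 at 8.55 to 11.9, Tfrc at 4.42 to 7.32, Slc11a2 at 3.27 to 4.24, Slc25a37 at 1.17 to 2.11 and Ncoa4 at 0.424 to 0.951 CPM per kb. On this scale no library of one of these 8 genes reached the range of its neighbour in this order. Slc40a1, at 0 to 3.19 CPM per kb, overlapped Slc25a37 and Ncoa4, and Ftl2-ps ran from 16.4 to 28.4 in Scr, beside Aco1, down to 0.115 to 0.123 in Mir, below the other genes apart from Slc40a1 in Scr replicate 3 and Mir replicates 1 and 2. The values of Ftl1, Ftl2-ps and Ncoa4 are uncertain on this scale because many of their stretches also occur in other genes. The order also depends on the length used. Joined exons were 6354 bases for Slc11a2 and 6185 for Tfrc, whereas the single transcripts searched for shared stretches were 3025 and 4890 bases. The order of Slc11a2 and Tfrc could therefore differ per kb of transcript, which was not computed.

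The light chain gene Ftl1 (ENSMUSG00000050708, chr7:45457944-45459884, minus strand) had 1280, 1849 and 2190 counts in Scr and 2056, 1822 and 1205 in Mir. In CPM these were 99.7, 134 and 132 against 131, 116 and 81.8. The groups overlapped, with Mir replicate 3 lowest and Scr replicate 1 next. The mean level was 122 ± 19.2 CPM in Scr and that in Mir 110 ± 25.2 CPM (SD, n = 3), and the log2 fold change was -0.15 ± 0.19 (edgeR adjusted p = 0.751). Without Mir replicate 3 it was 0.0052, so that library sets its sign. The parent gene of the pseudogene therefore showed no difference beyond the spread between pools.

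Because reads can move between Ftl1 and its copies, the sums were examined too. Ftl1 and Ftl2-ps together had 115, 143 and 141 CPM in Scr and 131, 116 and 81.8 CPM in Mir, with a log2 fold change of -0.28 ± 0.18 (adjusted p = 0.507). A further gene, Gm10252 (chr7:45459469-45460300), lies on the opposite strand and shares 355 exon bases with Ftl1. It was given more counts than Ftl1 in each library, 3480, 3692 and 5181 in Scr and 3866, 4285 and 4120 in Mir. The libraries do not mark the strand, so reads of the 2 genes cannot be told apart there. Ftl1 and Gm10252 summed gave -0.11 ± 0.09 (adjusted p = 0.608), and with Ftl2-ps added, -0.15 ± 0.09 (adjusted p = 0.468). In the last sum the 3 Scr libraries had 386, 410 and 453 CPM and the 3 Mir libraries 377, 390 and 361 CPM, so the groups overlapped.

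The annotation held 29 further ferritin genes and copies present in the count files, of which 11 had 0 counts, 6 had 1 to 9 counts in total and 12 had at least 10. Ftl1-ps1 (chr13:74399694-74407346) is the closest coding copy, 99.56% identical to Ftl1 over 910 bases. It differed more within the groups than between them, with 6, 321 and 204 counts in Scr and 12, 42 and 384 in Mir, and a log2 fold change of -0.29 ± 1.33 (adjusted p = 0.943). Ftl1-ps1 was highest in Mir replicate 3, where Ftl1 was lowest, and it was lowest in Scr replicate 1, where Ftl2-ps was highest. Ftl1 and Ftl1-ps1 summed gave -0.16 ± 0.17 (adjusted p = 0.696).

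The other 16 light chain copies summed to 17, 28 and 49 counts in Scr and 32, 27 and 28 in Mir, and their groups overlapped. Gm15590, at 99.09% identity even closer to Ftl1 than Ftl2-ps is, had 5, 8 and 10 counts in Scr and 6, 7 and 4 in Mir. Ftl1-ps2, which carries the pseudogene's letters around A307C and A401T, had 1, 2 and 7 counts against 3, 3 and 5. Gm6407 (4, 4 and 6 against 4, 3 and 2), Gm12164 (2, 2 and 6 against 5, 2 and 2), Gm8814 (2, 3 and 4 against 5, 3 and 6), Gm5278 (0, 2 and 6 against 2, 2 and 1), Gm4919 (0, 1 and 3 against 3, 4 and 2) and Gm2767 (3, 3 and 2 against 0, 0 and 2) were as sparse, and none of these 8 copies passed the filter on low counts.

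**Figure D3:**
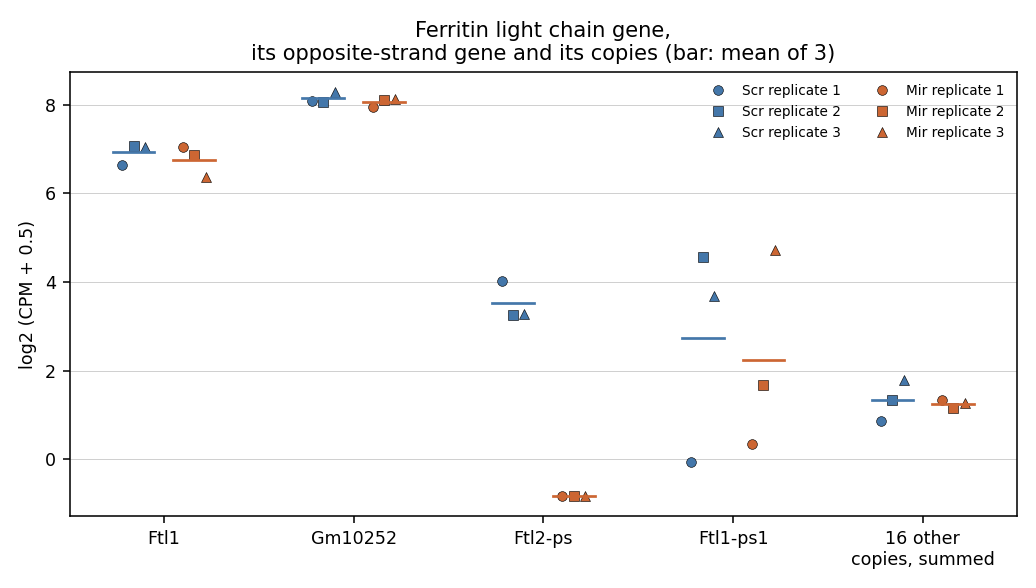
Level of Ftl1, of Gm10252 on its opposite strand, of Ftl2-ps, of Ftl1-ps1 and of the other 16 light chain copies summed, on log2 (CPM + 0.5), y axis, in each library; colours and bars as in the plot of the 10 genes. Only Ftl2-ps among the 5 separates the groups, and Ftl1-ps1 spreads from 0.467 to 26.1 CPM within and across them.

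The heavy chain gene Fth1 (ENSMUSG00000024661, chr19:9980598-9985098, plus strand) was the most abundant member. It had 760, 934 and 934 CPM in Scr and 704, 697 and 807 CPM in Mir, so that Mir replicate 3 lay above Scr replicate 1 and the groups overlapped by these 2 libraries. Means were 876 ± 101 and 736 ± 61.3 CPM (SD, n = 3). The log2 fold change was -0.25 ± 0.11, which was not called (adjusted p = 0.337). Of its transcript, 58 of 1445 stretches (4.01%) recur in another gene, the pseudogene Gm6977, so the counts of Fth1 are less exposed to its copies than those of Ftl1.

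Among heavy chain pseudogenes, Fth-ps3 (chr8:86915157-86915514) had 148, 154 and 218 counts in Scr and 160, 184 and 166 in Mir, a log2 fold change of -0.11 ± 0.17 (adjusted p = 0.799). Gm6977 had 22, 26 and 21 against 19, 19 and 21 counts (-0.33 ± 0.34, adjusted p = 0.689). Fth-ps2 had 17, 14 and 15 against 9, 14 and 4 counts and did not overlap in CPM, but was not called (-0.88 ± 0.50, adjusted p = 0.465). The ratio of heavy to light chain per kb was 2.94, 2.69 and 2.74 in Scr and 2.08, 2.31 and 3.81 in Mir, the Mir libraries lying on either side of the Scr range. Its size depends on the joined exon lengths, 3469 bases for Fth1 and 1340 for Ftl1. It also depends on the counts of Ftl1, which are uncertain because of Gm10252 and the light chain copies.

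Tfrc (ENSMUSG00000022797, chr16:32608920-32632794, plus strand) encodes the receptor that takes up transferrin-bound iron. It had 482, 625 and 734 counts in Scr and 494, 428 and 445 in Mir. In CPM these were 37.6, 45.3 and 44.2 against 31.4, 27.3 and 30.2, so each Mir library lay below each Scr library. The Scr mean was 42.3 ± 4.18 CPM and the Mir mean 29.7 ± 2.09 CPM (SD, n = 3), 0.70 of the Scr level. The log2 fold change was -0.51 ± 0.12. It was not called by edgeR (adjusted p = 0.212) and was called by DESeq2 (adjusted p = 0.0354), with the same size of change. Leaving out any 1 library moved the log2 fold change between -0.59 and -0.45, and with the endothelial markers as a covariate it was -0.50 ± 0.16. None of the 4841 stretches of its transcript recurs in another annotated gene (0 of 4841). Erythroid precursors are rich in this receptor, and the erythroid marker sum was at 52.9 and 1.47 CPM in Mir replicates 1 and 2; in Mir replicate 3, where that sum was 570 CPM, above Scr replicates 1 and 3, Tfrc was at 30.2 CPM. The part of erythroid RNA in the Tfrc values was not tested.

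Slc11a2 (ENSMUSG00000023030, chr15:100387898-100425072, minus strand) encodes the divalent metal transporter that carries iron across the endosomal membrane. It had 21.0, 24.8 and 21.0 CPM in Scr and 24.4, 26.95 and 20.8 CPM in Mir. The groups overlapped fully, with Mir replicate 3 the lowest library, and the log2 fold change was 0.11 ± 0.15 (adjusted p = 0.778).

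Slc40a1 (ENSMUSG00000025993, chr1:45908068-45926523, minus strand) encodes ferroportin, the iron exporter, which is prominent in macrophages, in red cell precursors and in endothelial cells. It had 59, 396 and 12 counts in Scr and 3, 0 and 55 in Mir, or 4.60, 28.7 and 0.723 CPM against 0.191, 0 and 3.73 CPM. Scr replicate 2 alone held most of the counts, and Mir replicate 3 lay within the Scr range. The log2 fold change of -3.12 ± 1.55 was not called (adjusted p = 0.403), and it was -1.01 without Scr replicate 2 and -6.77 without Mir replicate 3.

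All 10 endothelial markers had a lower mean in Mir. Their summed level was highest in Scr replicate 2, as for Slc40a1 (248 CPM), followed by Scr replicate 1 (99.6 CPM) and Mir replicate 3 (70.2 CPM), the same order as Slc40a1. Cldn5, a defining endothelial gene, had 363, 896 and 65 counts in Scr and 0, 0 and 132 in Mir, and 7 and 6 of the 10 markers were at 0 in Mir replicates 1 and 2. With the endothelial sum as a covariate the log2 fold change of Slc40a1 was 0.26 ± 0.70 (adjusted p = 0.947). Most of that sum came from 1 marker, Slco1c1, in Mir replicates 1 and 2 (20.0 of 21.2 and 24.4 of 25.9 CPM). In Scr replicate 3 it made up 23.5 of 35.6 CPM. Slco1c1 varied less between libraries than Cldn5, so the covariate spans a narrower range than Cldn5 does. This limit holds for every fit with this covariate, those of Ftl2-ps and Tfrc included. Microglia and macrophage markers (12 of 12 with a lower mean in Mir) and erythroid markers (11 of 13) were also low in those libraries, with 9 and 4, and 7 and 9, of them at 0; their part in the values of Slc40a1 was not tested.

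**Figure D4:**
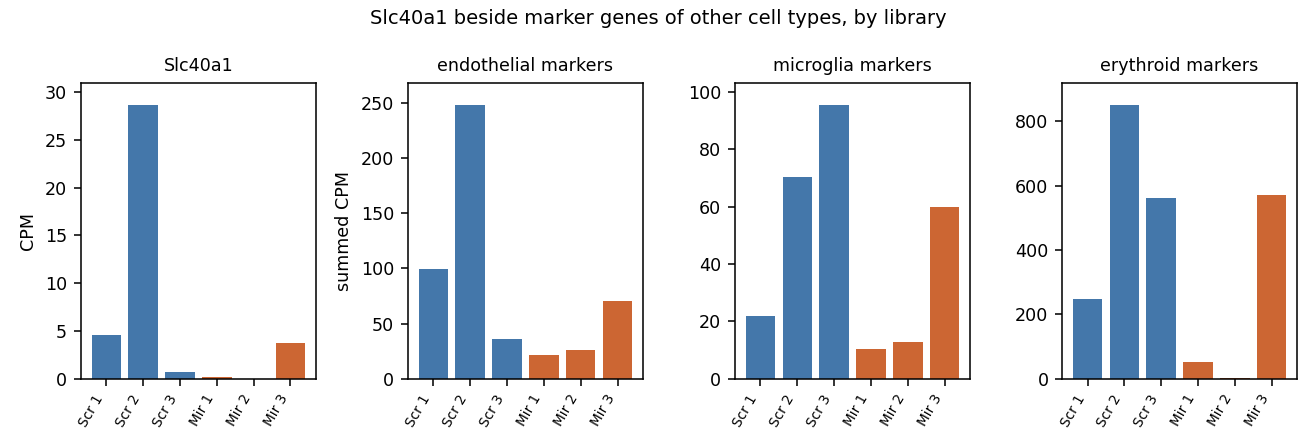
Slc40a1 (CPM) and the summed CPM of endothelial, microglia and macrophage, and erythroid markers in each library, as bars from 0 on linear axes of their own; blue is Scr and orange is Mir. Slc40a1 and the endothelial sum are both highest in Scr replicate 2, at 28.7 and 248 CPM.

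The sensors were measured more precisely. Ireb2 (ENSMUSG00000032293, chr9:54863789-54912530, plus strand) encodes iron regulatory protein 2, which is degraded when iron is plentiful. Its level was 113, 99.6 and 96.6 CPM in Scr and 101, 89.2 and 81.0 CPM in Mir, with Mir replicate 1 inside the Scr range. The log2 fold change was -0.19 ± 0.11 (adjusted p = 0.478). Aco1 (ENSMUSG00000028405, chr4:40143081-40198338, plus strand) encodes iron regulatory protein 1, which is a cytosolic aconitase while it holds an iron-sulfur cluster. It had 99.0, 89.3 and 86.0 CPM in Scr and 108, 102 and 93.3 CPM in Mir, again overlapping, with a log2 fold change of 0.14 ± 0.10 (adjusted p = 0.534). The 2 sensors thus leaned to opposite sides, each within the spread between pools.

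The 3′ UTR of Ireb2 holds 2 of the miR-3607 seed matches, 1 TCACATG and 1 CACATGA, and that of Slc25a37 likewise holds 2; the 3′ UTRs of the other 7 genes hold 0. Of all 20390 genes with a 3′ UTR, 15.7% hold at least 1 match on the sense strand, and overlapping matches of the 2 forms were counted each.

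Ncoa4 (ENSMUSG00000056234, chr14:32159865-32179855, plus strand) encodes the receptor that delivers ferritin to lysosomes for iron release. It had 51, 123 and 118 counts in Scr and 81, 77 and 103 in Mir (3.97, 8.91 and 7.11 CPM against 5.15, 4.92 and 6.99). Scr replicate 1 was the lowest library and the Mir values lay inside the Scr range. The log2 fold change was -0.23 ± 0.33 (adjusted p = 0.785), and 0.029 without Scr replicate 2. A share of 43.1% of its stretches recurs in Gm6768, which had more counts than Ncoa4 in each library (274, 290 and 326 in Scr, 364, 329 and 370 in Mir, log2 fold change 0.16 ± 0.13, adjusted p = 0.605), so the level of Ncoa4 is uncertain.

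Slc25a37 (ENSMUSG00000034248, chr14:69241848-69285112, minus strand) encodes mitoferrin 1, which imports iron into mitochondria. It had 9.58, 10.1 and 10.6 CPM in Scr and 9.48, 7.03 and 12.69 CPM in Mir, the Mir libraries spanning more than the Scr range. The log2 fold change was -0.056 ± 0.24 (adjusted p = 0.941).

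Other genes of iron biology were taken from 6 lists, 83 distinct genes in the count files, of which 72 were tested. Of these, 0 were called by edgeR in either direction, against 0.00592% of all genes, a share made up by Ftl2-ps alone. At an unadjusted p under 0.05, 4 were higher in Mir and 7 lower, against 6.57% and 7.93% of all genes. Groups did not overlap for 8 that were higher and 6 that were lower, near the 9.72% and 10.3% of all genes, and the median log2 fold change was 0.019. DESeq2 called 2 of them, both lower, against 2.2% of its genes.

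In iron uptake and transport, 11 of the 16 genes in the files were tested, 8 with a fitted value above 0 and 3 below, and 0 were called by edgeR. The smallest p belonged to Slc39a8, a zinc, manganese and iron importer, with 14.02, 18.1 and 10.4 CPM in Scr and 8.01, 6.83 and 5.97 CPM in Mir. Its groups did not overlap, and its log2 fold change of -1.03 ± 0.25 was called by DESeq2 (adjusted p = 0.0169) and not by edgeR (adjusted p = 0.212). Cybrd1 and Frrs1, ferric reductases, had log2 fold changes of 1.05 ± 0.58 (adjusted p = 0.447) and 0.37 ± 0.27 (adjusted p = 0.558).

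In ferritin loading, turnover and iron sensing, 6 of 11 genes were tested, 2 with a value above 0 and 4 below. Pcbp1, the chaperone that loads iron into ferritin, had 557, 558 and 578 CPM in Scr and 611, 648 and 634 CPM in Mir. These ranges were apart, but the change was small (log2 fold change 0.16 ± 0.07, adjusted p = 0.330). Herc2, a ubiquitin ligase, was at 57.7, 63.5 and 61.8 CPM against 55.2, 47.8 and 44.9 CPM (-0.31 ± 0.11, adjusted p = 0.282). Bmp6, which signals iron stores to the liver, had under 6 CPM in each library and a log2 fold change of 1.22 ± 0.99 (adjusted p = 0.603). Ftmt, mitochondrial ferritin, had 0 counts in all 6 libraries, which allows up to 3 counts, or 0.181 to 0.234 CPM, in a library.

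All 5 other transcripts with a known iron responsive element were tested, 2 with a value above 0 and 3 below. Epas1, a hypoxia-inducible factor strong in endothelium, had 48, 161 and 9 counts in Scr and 0, 0 and 26 in Mir, following the endothelial sum as Slc40a1 did (-3.18 ± 1.48, adjusted p = 0.377). Cdc42bpa, a kinase, had a log2 fold change of -0.22 ± 0.14 (adjusted p = 0.503).

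Iron-sulfur cluster assembly had 21 of 22 genes tested, 14 with a value above 0 and 7 below, with a median log2 fold change of 0.075. Nfu1, a cluster carrier of mitochondria, had 56.9, 57.7 and 61.0 CPM in Scr and 42.0, 43.2 and 42.5 CPM in Mir. The groups were clearly apart, and the log2 fold change of -0.46 ± 0.09 had the smallest p of the 72 genes; it was called by DESeq2 (adjusted p = 0.0145) and not by edgeR (adjusted p = 0.177). Its partner in late assembly Iba57 had 3.66, 4.42 and 5.72 CPM against 6.49, 6.83 and 8.01 CPM (0.62 ± 0.24, adjusted p = 0.312), and Isca2 lay at 0.20 ± 0.10 (adjusted p = 0.398).

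Haem genes were all tested, 19 of 19, with 10 above 0 and 9 below. Flvcr1, a haem and choline transporter, had 13.5, 15.7 and 14.2 CPM in Scr and 6.996, 10.03 and 10.3 CPM in Mir, with no overlap (-0.67 ± 0.20, adjusted p = 0.244). Abcb10, a mitochondrial transporter that steadies mitoferrin 1, had 294, 293 and 378 counts in Scr against 228, 224 and 295 in Mir (-0.45 ± 0.17, adjusted p = 0.301). Neither was called.

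Among the 11 genes of ferroptosis and of the NRF2 response to oxidants, 4 had a value above 0 and 7 below. Acsl4, which makes the lipids that oxidise in ferroptosis, had 12.1, 12.6 and 10.1 CPM in Scr and 8.39, 6.13 and 7.12 CPM in Mir (-0.68 ± 0.20, adjusted p = 0.244). Keap1, the brake on NRF2, lay at 0.25 ± 0.14 (adjusted p = 0.461), and the thioredoxin reductase Txnrd1 at -0.12 ± 0.09 (adjusted p = 0.537).

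**Figure D5:**
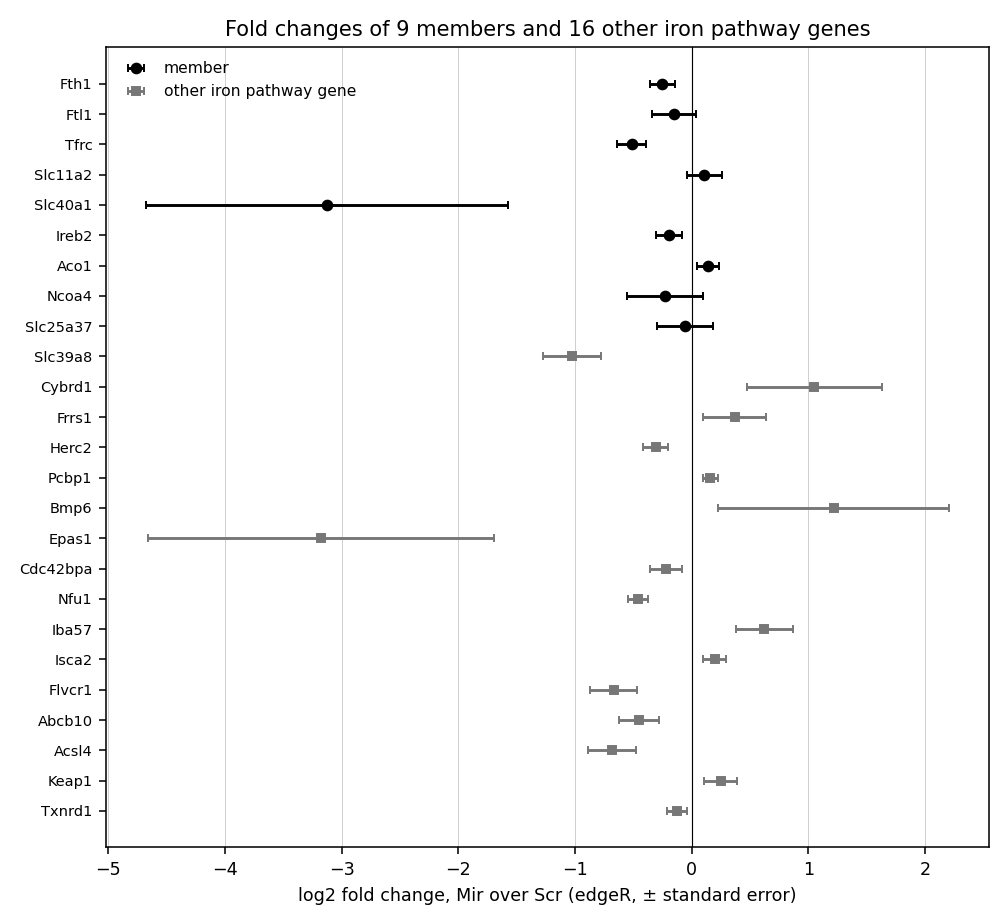
Fitted log2 fold change, Mir over Scr, with its standard error (x axis) for the 9 iron handling genes other than Ftl2-ps (black circles) and 16 genes of smallest p in the 6 iron lists (grey squares). Slc40a1 at -3.12 and Epas1 at -3.18 have the widest errors, and Tfrc is the member farthest from 0 relative to its error.

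The genes most like Ftl2-ps were sought by the gap, on log2 (CPM + 0.5), from the lowest Scr library down to the highest Mir library. Ftl2-ps, chosen for its difference between these groups, had the largest gap of the 16897 genes, 4.07. The next 5 were much smaller: Zfp979 (1.34), Pik3cg (1.29), Zfp985 (1.26), P2ry12 (1.16) and Rian (1.11). Tfrc ranked 393 with a gap of 0.25, and the 8 other members had gaps below 0, meaning that their groups overlapped.

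Zfp979 (chr4:147611937-147642513) and Zfp985 (chr4:147553277-147585198) are zinc finger genes that lie close together on the same chromosome as Ftl2-ps. Zfp979 had 24, 13 and 94 counts in Scr and 0, 0 and 1 in Mir, and Zfp985 had 11, 13 and 30 against 0, 1 and 1; members of this family resemble each other, so their counts are uncertain. Pik3cg (11, 33 and 12 against 0, 0 and 0) encodes a kinase subunit of blood cells. P2ry12 (23, 19 and 28 against 0, 0 and 5), a microglial receptor, is 1 of the 12 microglia and macrophage markers, whose sum was low in Mir replicates 1 and 2. Rian, a noncoding RNA of an imprinted cluster, had 92, 164 and 119 against 15, 26 and 45 counts. None of the 5 was called by edgeR (adjusted p = 0.168, 0.186, 0.167, 0.212 and 0.186 in the order Zfp979, Pik3cg, Zfp985, P2ry12, Rian).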

How the data were processed

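The authors deposited unnormalized counts per gene as 1 file per library. The aligner HISAT2 (2.1.0), the counter HTSeq (0.11.0) and DESeq2 (1.18.1), on the build mm10 (GRCm38), are listed per the submitters' processing notes; the annotation release and the strand setting were not given in the sources used. Libraries were made with SMART-seq v4 and read as 50 bp single reads, per the labels' protocols. The 5 summary lines of each file were left out of library sizes; 21.9 to 23.6% of listed reads fell in genes, 28.8 to 31.6% in no feature and 4.48 to 5.48% did not align. Of the 54146 gene IDs, 54079 had a symbol in GENCODE M21.

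Counts were fitted with edgeR 4.0.16 (quasi-likelihood F test, two-sided, group as the sole term, TMM, filterByExpr, 16897 genes) in R 4.3.3, with Benjamini-Hochberg adjustment over all genes and a threshold of 0.05. The pipeline was tested on simulated data. DESeq2 1.42.0, limma-voom (limma 3.58.1), RLE size factors, other filters, a replicate block, an endothelial covariate and leave-one-out fits were alternatives. Standard errors come from the F statistic. The depth, 12724511 to 16684038 counts in genes, leaves genes with a few counts imprecise.

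Sequences were read from GENCODE M21 transcripts on GRCm38, and copies were found with BLAST 2.17.0 (at least 80% identity over at least 200 bases). Exact 50-base stretches were compared on both strands. The microRNA seed came from the part of the labels' hairpin oligonucleotide that follows the loop.

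The members and lists were chosen with earlier results of these data known. Named genes are all members, the 3 of smallest p in each list (2 of these genes, and some sequence, are not reported here), the 5 with the largest gap between groups, ferritin copies with at least 10 counts in total, and genes overlapping Ftl2-ps. Tf and Ahsp were not matched by symbol.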

Additional observations from a re-analysis of the deposited data

How the results depend on the processing

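The number of genes called was 1 in edgeR, Ftl2-ps itself. It was 534 with DESeq2, 0 with limma-voom and 31 with no filter on low counts. Without Scr replicate 2 and Mir replicate 3 together, an alternative chosen after seeing the data, it was 29. When each library was left out it was 0 to 2 (0 without Mir replicate 1 or 2, 2 without Mir replicate 3). The count of members called, 0 of 9, was 1 with DESeq2 (Tfrc), and that of pathway genes, 0 of 72, was 2 with DESeq2 (Slc39a8 and Nfu1); both were 0 under the other alternatives, leaving out each library included. With the replicate number as a block 0 genes were called, 0 of them members, and Tfrc was at -0.51 (adjusted p = 0.272). Same-numbered libraries deviated together with r = 0.25, -0.15 and -0.087, so no pairing by number was evident. With 3 libraries per group such correlations cannot exclude one. Leaving out each library gave fitted log2 values of -0.30 to 0.0052 for Ftl1 (highest without Mir replicate 3), -0.49 to 0.029 for Ncoa4 (highest without Scr replicate 2) and -0.31 to 0.14 for Slc25a37 (highest without Mir replicate 2), so that each changed sign. Ftl1 was also above 0, at 0.091, when Scr replicate 2 and Mir replicate 3 were both left out. With the endothelial covariate Slc25a37 (0.065) and Slc40a1 (0.26) changed sign. Ftl2-ps ranged from -7.44 to -6.79 in the fitted alternatives. Fth1, Tfrc, Ireb2, Aco1 and Slc11a2 kept their sign in the 15 alternatives run for each. The sums of Ftl1 with Gm10252 and with Ftl1-ps1 were also added after seeing the data. The causes of these shifts were not tested.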

Other observations

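Alas2, the erythroid enzyme that starts haem synthesis, and Hmox1, the enzyme that breaks haem down, were chosen here after their values were seen. Alas2 had 31, 264 and 174 counts in Scr and 39, 14 and 184 in Mir, and Hmox1 had 51, 148 and 199 against 33, 34 and 143. Both were low in Scr replicate 1 and Mir replicates 1 and 2 and high in Scr replicates 2 and 3 and Mir replicate 3, and the summed erythroid markers were low and high in the same libraries (248, 851 and 561 CPM against 52.9, 1.47 and 570 CPM). The summed microglia and macrophage markers (21.8, 70.5 and 95.4 CPM against 10.2, 12.9 and 59.8 CPM) put the 6 libraries in the same order as the CPM of Hmox1. The part of either cell type in these values was not tested. Neither was called by edgeR (log2 fold change -1.02 ± 0.97, adjusted p = 0.665, for Alas2 and -0.94 ± 0.67, adjusted p = 0.550, for Hmox1).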
